A study of Mus musculus with 4 samples.

Results

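Glycolysis and the pentose phosphate pathway were described here through 39 genes of glucose uptake, glycolysis, lactate and pyruvate handling and pentose phosphate metabolism. They were listed by name for their known roles. Earlier results of these data were known when the list was made, so it is not independent of them. The list holds 40 symbols, of which Pkm2 is an older symbol of Pkm. Each gene was read from the array probe set paired with that symbol alone with the largest mean across the 4 arrays. This gave 34 of the 39 genes, out of 19938 genes tested in all. Gapdh is paired only with probe sets that also name other genes, and no probe set is paired with Gpi1, Eno1, Mpc2 or G6pdx in the annotation used, so these 5 genes are not reported.

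The samples were naive CD8 T cells sorted by flow cytometry from the spleen. There were 2 samples from Klf13 knockout (KO) mice and 2 from wild-type (WT) mice, all of the BALB/c strain, each on its own 1-colour Affymetrix whole-transcript array. The labels give no treatment, age, deleted exon or number of animals per sample, so the p-values below rest on the spread among these 4 samples alone, and that spread may be technical. Klf13 belongs to the SP/KLF family of zinc-finger transcription factors, and its own log2 values were 5.46 and 5.43 in the KO arrays, against 7.01 and 7.15 in the WT arrays. The CD8 label was borne out by Cd8a, at 11.11 and 11.14 in KO, against 11.25 and 11.12 in WT, values within the brightest 1994 of all genes tested. Cd8a alone does not show that the cells were pure or quiescent. Over the 4 arrays, mean log2 levels ran from 7.20 to 9.06 in 9 measured markers of cycling cells. They ran from 5.37 to 10.1 in 7 measured erythroid markers. All values are log2 probe-set values, and a fold change is the KO mean minus the WT mean.

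Glycolysis turns glucose into pyruvate. Lactate dehydrogenase reduces pyruvate to lactate, or pyruvate enters mitochondria and is oxidised by the pyruvate dehydrogenase complex. The pentose phosphate pathway branches off at glucose 6-phosphate and supplies NADPH and ribose for nucleotides. Naive T cells are quiescent and rely largely on oxidative metabolism, and they raise glucose uptake, glycolytic enzymes and lactate output when they are activated, through signals that include mTOR, Myc and HIF-1.

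In KO cells Ldha, the lactate dehydrogenase subunit that favours lactate formation, was lower than in WT cells, and it was the only one of the 34 genes to pass the test (limma over all 19938 genes, Benjamini-Hochberg adjusted p under 0.05). Its log2 values were 9.99 and 10.1 in the KO arrays, against 10.6 and 10.7 in the WT arrays, and the groups did not overlap. The log2 fold change was -0.61 (SE 0.10, 95% interval -0.82 to -0.40, limma adjusted p = 0.00970), a level 1.53-fold lower in KO cells. The 1 call among 34 genes is 2.94%, against 2.25% of all genes called in either direction, 1.05% of all genes called lower and 3.64% of the 9969 genes with the higher mean levels, so the share of calls was near the background. Without Ldha, 0 of 33 genes passed the limma test, and at an unadjusted p under 0.05 there were 6. At that mark 16.6% of all genes and 2344 of the 9969 brighter genes passed, in either direction.

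Without KO replicate 1 the log2 fold change of Ldha was -0.56, close to that with all arrays, and the limma adjusted p = 0.0509 no longer passed. That setting leaves 1 KO array, which is assumed to vary as the WT arrays do, and 1 residual degree of freedom before moderation; KO replicate 2 itself, at 10.08, was below both WT arrays. Over all 11 alternatives the log2 fold change lay between -0.70 and -0.54, and the limma adjusted p was under 0.05 in 10 of them.

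**Figure D1:**
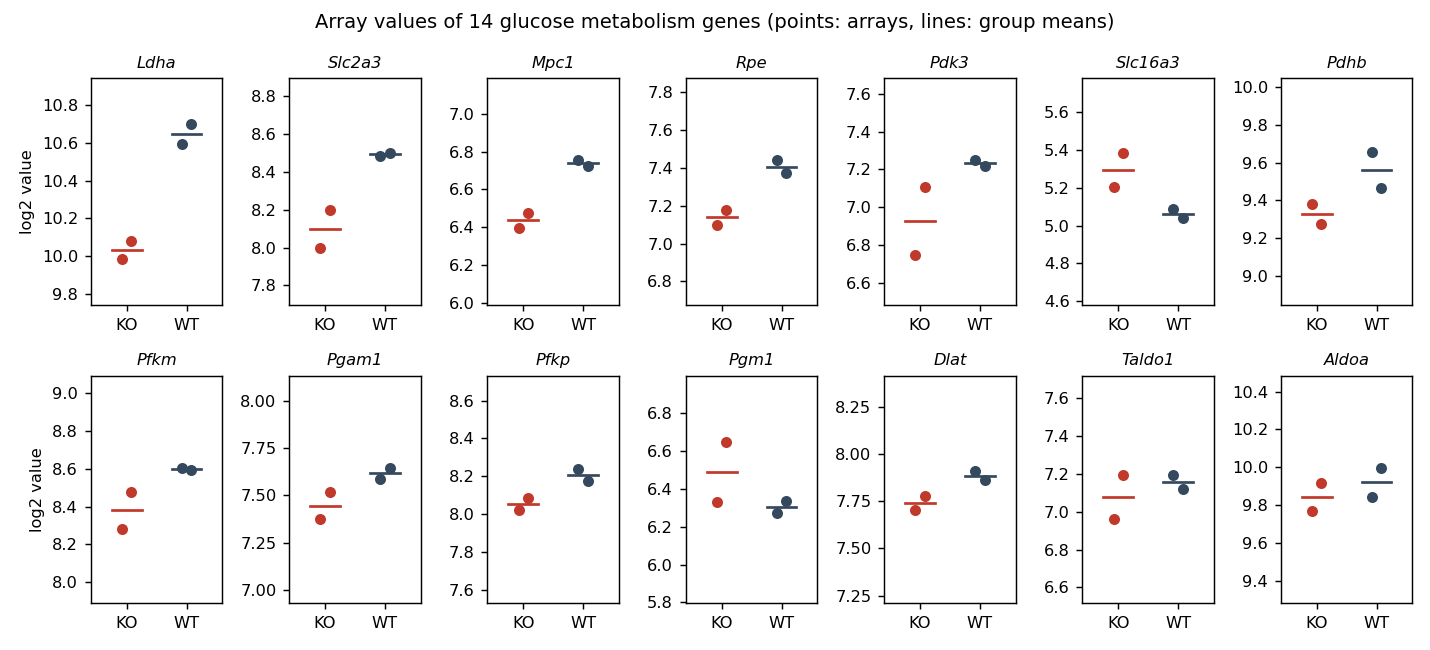
Log2 values (vertical axis, the same span in each panel) of the 12 genes with the smallest p and of Taldo1 and Aldoa, which share a chromosome with Klf13; red points are the 2 KO arrays, dark points the 2 WT arrays and lines the group means. Ldha shows the widest gap between the groups, and the arrays of the groups overlap for Taldo1, Aldoa and Pgm1.

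The promoter windows of 3 genes are shown because they cover the gene that fell, the gene with the third smallest p (Mpc1, -0.30) and a glycolytic gene with a difference close to 0 (Pgk1, -0.07). They are RefSeq sequences of the mouse assembly GRCm38.p6, 250 bases before to 50 after the first of the listed transcription starts, all on the plus strand: chr7:46845554-46845853 for Ldha, chr17:8283537-8283836 for Mpc1 and chrX:106186850-106187149 for Pgk1. Capitals mark, on either strand, the GC box GGGCGG and the GT box CACCC, 2 kinds of element that SP/KLF factors are known to bind, and ACGTG, the core of the hypoxia response element bound by HIF-1. A palindromic CACGTG counts once on each strand as ACGTG.
Ldha: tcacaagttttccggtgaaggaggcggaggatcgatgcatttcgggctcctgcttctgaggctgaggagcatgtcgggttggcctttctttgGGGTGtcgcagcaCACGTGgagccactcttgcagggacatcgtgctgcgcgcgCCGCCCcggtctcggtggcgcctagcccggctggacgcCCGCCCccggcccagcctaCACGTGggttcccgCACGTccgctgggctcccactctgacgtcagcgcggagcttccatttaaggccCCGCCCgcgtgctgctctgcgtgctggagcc
Mpc1: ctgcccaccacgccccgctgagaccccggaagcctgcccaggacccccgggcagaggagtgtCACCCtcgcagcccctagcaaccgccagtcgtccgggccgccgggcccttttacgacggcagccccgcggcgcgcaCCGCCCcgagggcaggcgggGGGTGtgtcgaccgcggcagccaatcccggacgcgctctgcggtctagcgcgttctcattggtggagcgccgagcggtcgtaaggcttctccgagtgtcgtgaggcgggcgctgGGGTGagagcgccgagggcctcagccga
Pgk1: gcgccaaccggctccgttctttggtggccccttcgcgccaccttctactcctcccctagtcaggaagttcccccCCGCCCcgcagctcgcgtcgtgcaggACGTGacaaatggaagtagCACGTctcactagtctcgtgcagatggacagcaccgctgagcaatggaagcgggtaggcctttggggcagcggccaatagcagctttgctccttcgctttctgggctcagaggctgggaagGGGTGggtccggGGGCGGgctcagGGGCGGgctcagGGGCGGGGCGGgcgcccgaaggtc

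The Ldha window held 3 GC boxes, 1 GT box and 5 matches to ACGTG, and the Pgk1 window 5, 1 and 2. The Mpc1 window held 1 GC box, 3 GT boxes and 0 matches to ACGTG. Promoter windows were found for 33 of the 34 genes, with 47 windows in all, since some genes have several starts. Of these windows 63.8% held a GC box, against 35.7% of all 32851 promoter windows of the same length. The GT box was in 70.2% of the windows of these genes, against 57.5% of all windows, and ACGTG in 44.7%, against 19.6%. The windows of all genes were not matched for level, whereas 31 of the 34 genes belonged to the 9969 brighter genes. These shares therefore do not show a trait of this pathway. GC and GT boxes were thus present in the window of Ldha and in those of Mpc1 and Pgk1, which did not pass the test. ACGTG was present in the windows of Ldha and Pgk1 and absent from that of Mpc1.

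Ldha lies on chromosome 7, the chromosome of Klf13, as do Aldoa and Taldo1 among the genes measured. Aldoa, an aldolase that splits fructose 1,6-bisphosphate, had log2 values of 9.77 and 9.92 in KO cells, against 9.84 and 9.99 in WT cells, a difference of -0.08 (limma adjusted p = 0.766). Taldo1, the transaldolase of the pentose phosphate pathway, had 6.96 and 7.19 in KO cells, against 7.20 and 7.12 in WT cells, a difference of -0.08 (limma adjusted p = 0.745). In both genes the groups overlapped.

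The nearest tested genes by order along the chromosome give the setting of Ldha. Gtf2h1, a subunit of the general transcription factor TFIIH, lies next to it and had log2 values of 7.70 and 7.77 in KO cells, against 8.10 and 8.05 in WT cells (-0.34, limma adjusted p = 0.108). Hps5, next in line and encoding a subunit of a complex that forms lysosome-related organelles, had 6.33 and 6.60 in KO cells, against 6.81 and 6.78 in WT cells (-0.33, limma adjusted p = 0.177). Both lay below WT in both KO arrays, without passing the test. On the other side, the testis-type lactate dehydrogenase gene Ldhc (0.09) and the ESCRT gene Tsg101 (0.03) overlapped between the groups. Uevld had a difference of 0.24, with both KO arrays above both WT arrays (limma adjusted p = 0.239).

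Of the 53 genes tested between Ldha and Klf13, 1 passed the test (1.89%), namely Gas2 (-0.55). Of the 53 genes on the other side of Ldha, 4 passed (7.55%): Dhdh (1.58), Bcat2 (0.71) and Dbp (0.69) were higher and Kcnc1 (-0.52) was lower in KO cells. Over the whole of chromosome 7, 2.71% of 1734 genes passed. These neighbours were chosen after the values of Ldha were seen. Loss of Klf13 and any stretch of chromosome carried along with the altered allele cannot be told apart in this design.

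**Figure D2:**
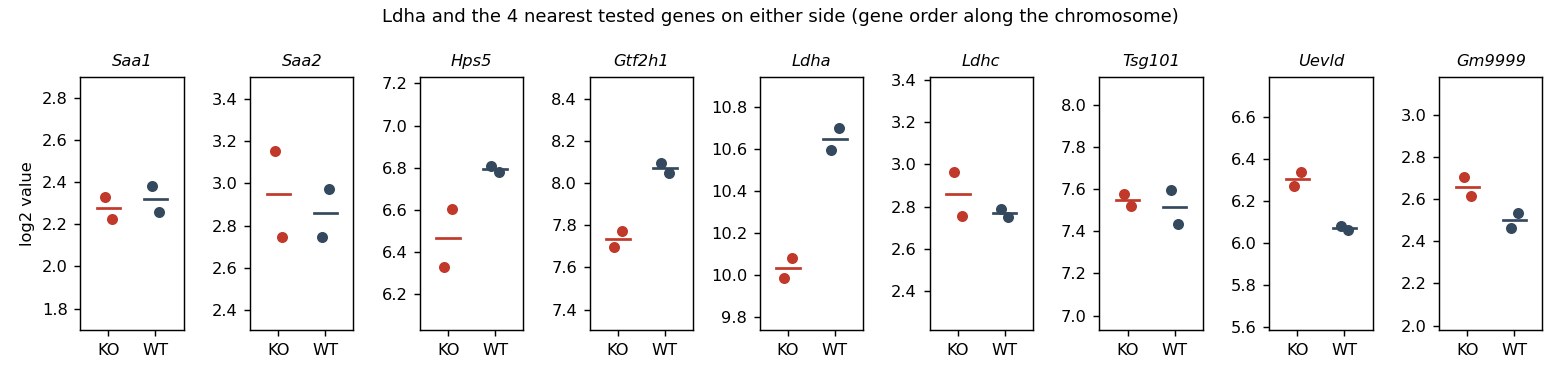
Log2 values (vertical axis, the same span in each panel) of Ldha and of the 4 nearest tested genes on either side in their order along the chromosome; red points are the KO arrays, dark points the WT arrays, lines the group means. Ldha, Gtf2h1 and Hps5 are lower in both KO arrays, whereas Uevld and Gm9999 are higher and Tsg101 overlaps.

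Glucose enters T cells through transporters of the SLC2 family. Slc2a3 encodes GLUT3, a transporter of high affinity. Its log2 values were 7.996 and 8.198 in KO cells, against 8.487 and 8.499 in WT cells. Both KO arrays lay below both WT arrays, with more spread in KO (SD 0.14) than in WT (SD 0.0087). The difference was -0.40 (SE 0.10, 95% interval -0.62 to -0.17) and missed the threshold (limma adjusted p = 0.0832). Over 11 alternatives it lay between -0.50 and -0.29. It passed among the 9969 brighter genes alone, with arrays centred on their medians, with a variance trend and with a block by replicate number. Calls over all genes rose in these settings too, to 606, 1088, 831 and 1187, against 448. Slc2a1, which encodes GLUT1, the transporter raised on T cell activation, had 7.30 and 7.59 in KO cells, against 7.55 and 7.65 in WT cells, and the groups overlapped (-0.16, limma adjusted p = 0.543).

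Of the 10 genes of the preparatory steps, which consume ATP and split the sugar, 9 were measured and 0 passed the limma test, with 0 also at an unadjusted p under 0.05. Their fold changes ran from -0.22 to 0.13 on the log2 scale. Phosphofructokinase, the committed step of glycolysis, has 3 subunit genes, and they differed in sign. Pfkm had log2 values of 8.28 and 8.48 in KO cells, against 8.61 and 8.60 in WT cells (-0.22, limma adjusted p = 0.309). Pfkp had 8.02 and 8.08 in KO cells, against 8.24 and 8.18 in WT cells (-0.15, limma adjusted p = 0.452). Both KO arrays were below both WT arrays for Pfkm and Pfkp. Pfkl, the form known from liver, had 7.25 and 7.51 in KO cells, against 7.22 and 7.28 in WT cells, and overlapped (0.13, limma adjusted p = 0.591).

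Pfkfb3, which makes the allosteric activator of phosphofructokinase, differed by -0.03 (95% interval -0.24 to 0.18). Hexokinase traps glucose as its 6-phosphate, and Hk2, the inducible form, differed by 0.02 (95% interval -0.19 to 0.23). For Hk1, the form found in most tissues, the brightest probe set had a mean of 12.1, inside the range of 10.9 to 12.5 of 16 probe sets that the annotation pairs with both Rpl17, a ribosomal protein gene, and Hk1. The other Hk1 probe set had a mean of 8.58. The brighter set differed by -0.08 and the other by 0.07, so the sign for Hk1 depends on the probe set and its value is uncertain. The aldolase Aldoc differed by -0.06 and the triose phosphate isomerase Tpi1 by -0.03.

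In the pay-off steps, which yield ATP and NADH, 4 of 6 genes were measured and 0 passed the limma test, with 0 also at an unadjusted p under 0.05. The phosphoglycerate mutase Pgam1 had log2 values of 7.37 and 7.52 in KO cells, against 7.59 and 7.65 in WT cells, with no overlap (-0.17, limma adjusted p = 0.425). The phosphoglycerate kinase Pgk1 differed by -0.07 (95% interval -0.29 to 0.14) and the pyruvate kinase Pkm by -0.07 (95% interval -0.30 to 0.15). A dimmer Pkm probe set differed by -0.15. The neuronal enolase Eno2, a dim probe set with a mean of 3.90, differed by 0.04. For Pgk1 and Pgam1 each, 2 of 3 probe sets held identical values in all arrays and count as 1 measurement; the third gave a KO minus WT difference of -0.07 for Pgk1 and -0.17 for Pgam1.

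Among the 4 genes of lactate handling, Ldha fell and 3 did not pass. Ldhb, whose subunit favours the reverse reaction, was dim, with a mean of 4.41, and its 2 probe sets differed by 0.04 and 0.21 (limma adjusted p = 0.923 for the one used). Lactate leaves and enters cells through monocarboxylate transporters. Slc16a3, which encodes MCT4, an exporter typical of glycolytic cells, had log2 values of 5.20 and 5.38 in KO cells, against 5.09 and 5.04 in WT cells. Both KO arrays lay above both WT arrays, and the difference of 0.23 (SE 0.10) missed the threshold (limma adjusted p = 0.283). Slc16a1, which encodes MCT1, differed by -0.13 (limma adjusted p = 0.547), with both KO arrays below both WT arrays.

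Of the 8 genes by which pyruvate enters mitochondrial oxidation, 7 were measured and 0 passed the limma test, and 3 (Mpc1, Pdk3 and Pdhb) were lower in KO cells at an unadjusted p under 0.05, where 8.75% of all genes and 16.1% of the 9969 brighter genes were. Mpc1, a subunit of the mitochondrial pyruvate carrier, had log2 values of 6.39 and 6.48 in KO cells, against 6.75 and 6.72 in WT cells (-0.30, SE 0.09, limma adjusted p = 0.141). Pdhb, the beta subunit of the E1 enzyme of pyruvate dehydrogenase, had 9.38 and 9.28 in KO cells, against 9.66 and 9.47 in WT cells (-0.24, limma adjusted p = 0.285). Dlat, the E2 enzyme of that complex, had 7.70 and 7.78 in KO cells, against 7.91 and 7.86 in WT cells (-0.15, limma adjusted p = 0.482). The groups did not overlap in Mpc1, Pdhb or Dlat. Pdha1, the E1 alpha subunit, differed by -0.08 and overlapped.

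Pyruvate dehydrogenase kinases switch the complex off. Pdk3 had log2 values of 6.75 and 7.11 in KO cells, against 7.25 and 7.22 in WT cells (-0.31, SE 0.12, limma adjusted p = 0.244), and KO replicate 1 made most of that difference. Pdk1, a HIF-1 target, differed by -0.12 (limma adjusted p = 0.558), with no overlap. Pdk2 had the same mean of 5.57 in both groups (95% interval of the difference -0.23 to 0.23).

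In the oxidative branch of the pentose phosphate pathway, which makes NADPH, the lactonase Pgls differed by 0.08 and the dehydrogenase Pgd by -0.04. In the non-oxidative branch, which interconverts sugar phosphates, Rpe was the one with an unadjusted p under 0.05. This epimerase had log2 values of 7.10 and 7.18 in KO cells, against 7.44 and 7.38 in WT cells, without overlap (-0.27, SE 0.09, limma adjusted p = 0.191). The isomerase Rpia differed by -0.05, with the KO arrays on either side of the WT arrays at 7.49 and 7.93. The transketolase Tkt differed by -0.01 (95% interval -0.23 to 0.21). Phosphoglucomutases link glycogen and nucleoside sugars to glycolysis: Pgm1 had 6.33 and 6.65 in KO cells, against 6.27 and 6.34 in WT cells (0.18, limma adjusted p = 0.477), and Pgm2 differed by -0.04.

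**Figure D3:**
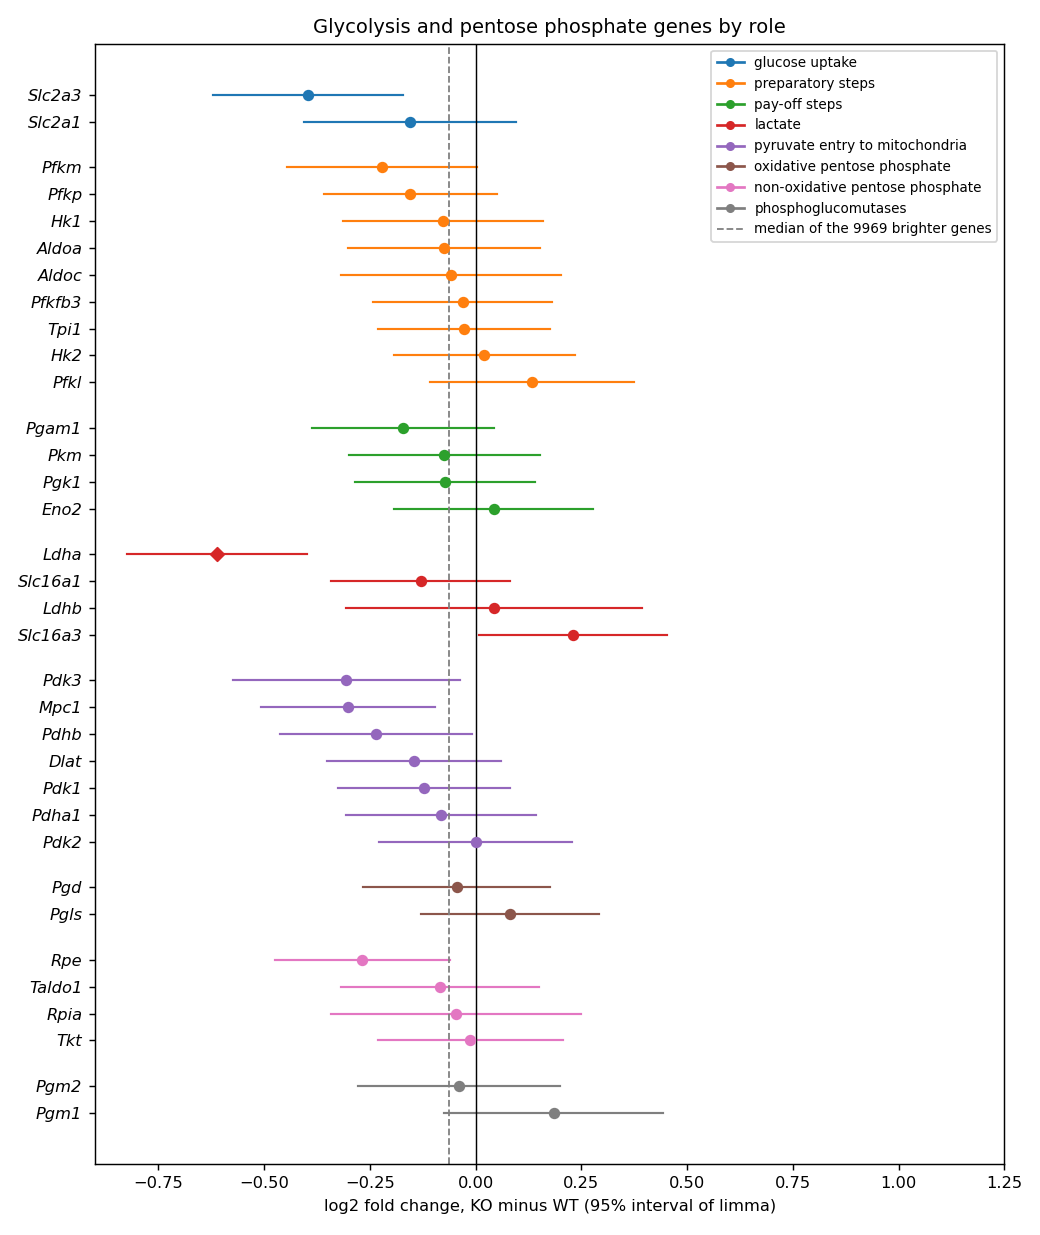
Log2 fold change, KO minus WT (horizontal axis), of the 34 genes in 8 groups by role, with 95% intervals from limma; the diamond marks the gene past the threshold and the dashed line the median of the 9969 brighter genes (-0.06). The interval of Ldha, -0.82 to -0.40, lies farthest from 0, and most others span the dashed line.

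As a whole the list leaned towards lower values in KO cells, as bright genes on these arrays did. The difference was below 0 in 27 of 34 genes, in 19 after a further quantile normalization, in 31 with each array centred on its median and in 19 without KO replicate 1. The list median was -0.07 (-0.02, -0.16 and -0.0070 under those 3 settings), and it was -0.07 both without Ldha and without the 3 genes on chromosome 7. The median of all genes was 0.02 (-0.0025, -0.07 and 0.0064 under the same 3 settings). Median centring moves the difference of every gene by the same amount. However, 31 of the 34 genes belonged to the 9969 genes with the higher mean levels and 14 to the 1994 brightest genes, whose medians were -0.06 and -0.07. Of these 34 genes 79.4% were lower in KO cells, against 64.8% of the 9969 brighter genes and 73.9% of the 1994 brightest. Both KO arrays lay below both WT arrays in 12 of the 34 genes and above them in 2. That separation was found in 23.2% (lower) and 24.4% (higher) of all genes, and in 38.8% (lower) and 17.0% (higher) of the 9969 brighter genes. At an unadjusted p under 0.05 there were 7 of the 34 genes (6 lower, 1 higher). Of all genes 16.6% passed that mark in either direction and 8.75% were lower. Of the 9969 brighter genes 2344 passed it in either direction and 16.1% were lower. No shift of the list beyond that of genes of like brightness is shown by these counts.

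**Figure D4:**
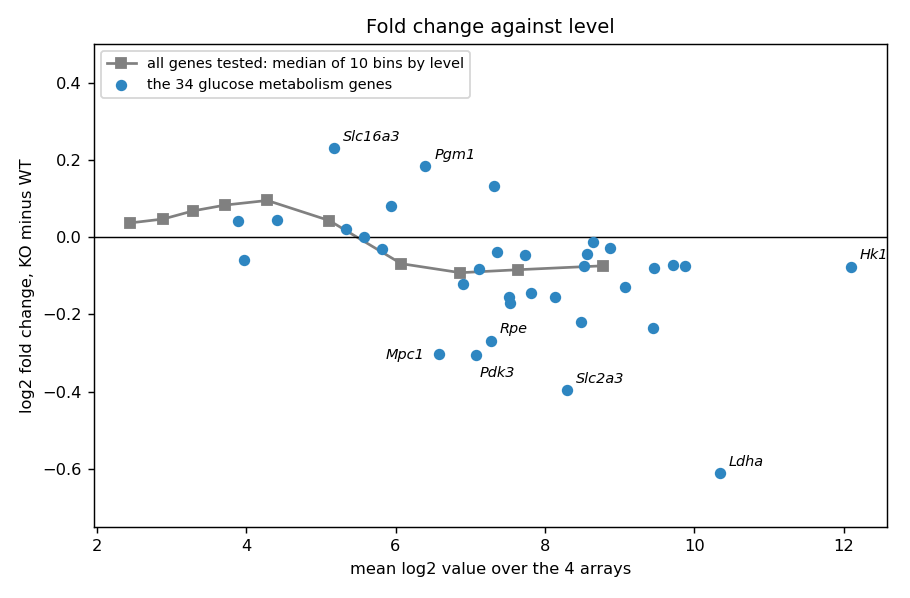
Log2 fold change, KO minus WT (vertical axis), against the mean log2 value over the 4 arrays (horizontal axis) for the 34 genes (blue) and for the medians of all genes in 10 bins by level (grey squares). Many of the genes sit near the grey line, which is at -0.07 in the brightest bin, and Ldha and Slc2a3 lie farthest below it.

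The lean also differed between the KO arrays. Against the WT mean, the median over the 34 genes was -0.15 in KO replicate 1 and -0.0070 in KO replicate 2; over the 9969 brighter genes these medians were -0.12 and -0.01. KO replicate 1 had the lowest of the 4 values in 23 of the 34 genes (67.6%), against 59.3% of the 9969 brighter genes. KO replicate 2 was at or above the lower WT array in 18 of the 34 genes. Ldha, Slc2a3, Mpc1 and Rpe were among the 12 genes below the WT arrays in both KO arrays. Across all probe sets the upper quartile stood at 6.52 in KO replicate 1, against 6.63 in KO replicate 2 and 6.67 and 6.66 in the WT arrays. The part of this difference between the KO arrays in the single-gene values was not tested.

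**Figure D5:**
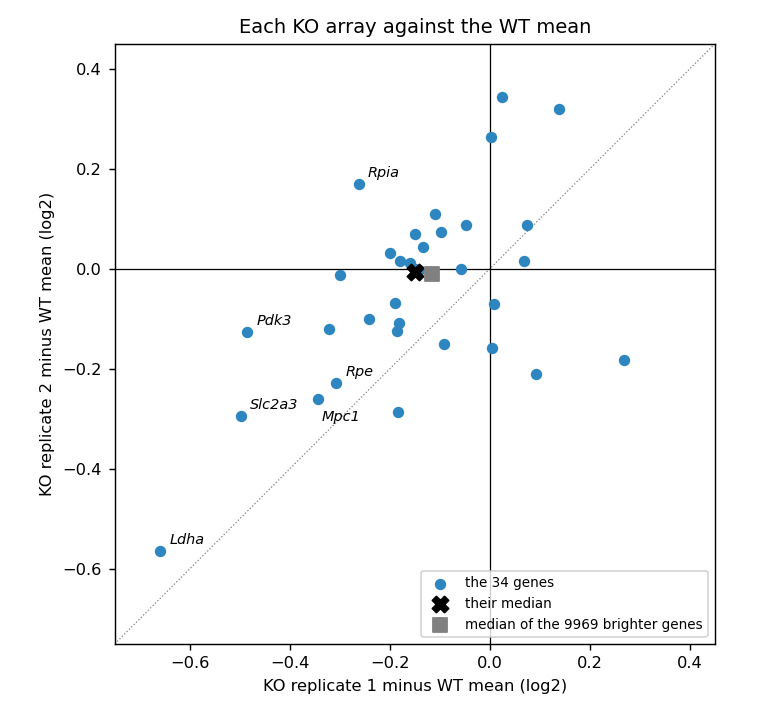
Difference of KO replicate 1 (horizontal axis) and KO replicate 2 (vertical axis) from the WT mean, log2, for the 34 genes; the cross is their median, the square the median of the 9969 brighter genes and the dotted line marks equal differences. The cross stands at -0.15 for KO replicate 1 and close to 0 for KO replicate 2, and Ldha is low in both.

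Other genes of glucose metabolism were read in the same fit from a list of 40, of which 37 were measured. In KO cells 1 rose and 1 fell (5.41%, against 2.25% of all genes and 3.64% of the 9969 brighter genes), and the list median was 0.03. Pygl, the glycogen phosphorylase known from liver and also found in neutrophils, rose: its log2 values were 5.25 and 5.68 in KO cells, against 4.81 and 4.79 in WT cells (0.67, SE 0.13, limma adjusted p = 0.0314). Bpgm, which makes 2,3-bisphosphoglycerate and is best known from red cells, fell: it had 5.38 and 5.68 in KO cells, against 6.17 and 6.08 in WT cells (-0.60, SE 0.11, limma adjusted p = 0.0269). The phosphatase Pdp2, which reactivates pyruvate dehydrogenase (-0.37), and the fructose bisphosphatase Fbp1 (0.31) did not pass.

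Of 28 regulators of glycolysis 27 were measured, and 3 rose and 0 fell, with a list median of 0.02. That share is 11.1%, against 2.25% of all genes and 3.64% of the 9969 brighter genes. Ddit4 stood in that list with its rise already known, so the count is no independent evidence. Ddit4, an inhibitor of mTOR signalling, had log2 values of 8.50 and 8.63 in KO cells, against 7.10 and 7.22 in WT cells. Bhlhe40, a transcriptional repressor of activated T cells, had 5.39 and 5.73 in KO cells, against 4.83 and 5.03 in WT cells (0.63, SE 0.13, limma adjusted p = 0.0330). Mycn, a Myc family factor, had 5.36 and 5.45 in KO cells, against 4.82 and 4.97 in WT cells (0.50, SE 0.10, limma adjusted p = 0.0299). The groups did not overlap in any of these 3 genes. Rheb, which activates mTOR complex 1, differed by -0.32 (limma adjusted p = 0.121).

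Markers of other cells and states moved beside these values. The counts below stand beside 2.25% of all genes passing the test. At an unadjusted limma p under 0.05, 1566 of all 19938 genes were higher in KO cells and 8.75% were lower. Among the 9969 brighter genes 740 were higher and 16.1% lower at that mark. Of 10 neutrophil markers 4 rose, all of them genes of granule proteins of early neutrophil stages: Mpo (1.97), Prtn3 (1.71), Ctsg (1.70) and Elane (1.597). The other 6 (Ngp, S100a8, S100a9, Ltf, Camp and Ly6g) did not pass and had log2 values of 2.53 to 3.88 over the 4 arrays. Of all 10, 9 were above 0 and Ly6g was below it (-0.12). Both KO arrays lay above both WT arrays in 8 of the 10, against 24.4% of all genes. At an unadjusted limma p under 0.05, 6 of the 10 were higher in KO cells, among them Ngp (0.33) and S100a9 (0.23). The summed linear level of the 10 was 905 and 990 in the KO arrays, against 282 and 330 in the WT arrays. Of 10 myeloid markers Lyz2 (1.15), Mpeg1 (0.84), Tyrobp (0.62) and Csf1r (0.58) rose (sums 261 and 301 in KO, against 214 and 211 in WT). Of the 10, 9 were above 0, and both KO arrays lay above both WT arrays in 7. Cd68 had a difference of -0.34 without passing. Of 9 measured B cell markers Ly6d rose (0.64), with sums of 355 and 388 in KO, against 270 and 299 in WT. Of the 9, 8 were above 0, and both KO arrays lay above both WT arrays in 6. At an unadjusted limma p under 0.05, 4 of the 9 were higher in KO cells. Of 7 measured erythroid markers Rhag fell (-0.45), and the list held both signs: 5 were below 0 and 2 above, Slc4a1 (0.18, higher in both KO arrays) and Alas2 (0.05). The erythroid sums were 2248 and 2346 in KO, against 2555 and 2530 in WT. Of 10 markers of activated T cells Gzmb (-0.96) and Cd69 (-0.53) fell and 0 rose. Il2ra (0.38) and Nr4a1 (0.36) were higher in both KO arrays at an unadjusted p under 0.05 without passing, and both KO arrays lay below both WT arrays in 3 of the 10 and above them in 4 (sums 3155 and 3430 in KO, against 3762 and 3750 in WT). Of 9 measured markers of cycling cells 0 passed the limma test, and 1 was lower at an unadjusted p under 0.05 (sums 2620 and 2803 in KO, against 2979 and 2915 in WT). All 9 were below 0, as were 64.8% of the 9969 brighter genes. Both KO arrays lay below both WT arrays in 5 of the 9, against 38.8% of those brighter genes. Of 8 measured CD8 T cell markers 0 passed, and 2 were lower at an unadjusted p under 0.05 (sums 9320 and 9561 in KO, against 9734 and 9737 in WT). Of these 8 markers, 6 were below 0 and 2 above. The arrays give no detection calls, so no marker was called absent. The part of these cells and states in the values of Ldha, Pygl, Bpgm and the other genes was not tested, and in sorted bulk samples fewer cells of a type and less RNA per cell cannot be told apart.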

How the data were processed

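The files hold log2 probe-set values deposited by the authors, 1 column per array; per the submitters' processing notes the tools were RMA and Partek, without stated versions. RMA normally aligns arrays by quantile normalization, but the deposited arrays are not fully aligned (upper quartile 6.52 and 6.63 in KO, against 6.67 and 6.66 in WT), so shifts of whole arrays remain; folds of dim genes are compressed. Levels also reflect how well a probe set binds and do not rank genes by abundance. The number of arrays limits the precision.

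GEO's platform annotation pairs 21789 of 35556 probe sets with 1 symbol, 1621 with several and lists none for 12146. Symbols were updated by gene identifier to RefSeq names of GRCm38.p6 (21698 matched). The genome build of the files is not given in the sources used here, and gene order was taken from that assembly. No filter on level was applied.

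KO was compared with WT in limma 3.58.1 under R 4.3.3, with genotype alone in the model fitted by lmFit and moderated by eBayes (8.06 prior degrees of freedom). Tests were two-sided, and adjusted p-values are Benjamini-Hochberg values over 19938 genes with a threshold of 0.05. The fit was tested on simulated data with independent errors and no shifts of whole arrays, so that test does not cover such shifts. The members, lists and alternatives were chosen with earlier results of these data known. Given in every array are the 12 listed genes with the smallest p, Ldha and the listed genes on chromosome 7, and the other pathway genes and regulators that passed. Slc2a1 and Pfkl were added beside their isozymes. Other listed genes and the markers are given by difference, range or count.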

Additional observations from a re-analysis of the deposited data

How the results depend on the processing

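The number of listed genes past the threshold was 1 in the limma fit as reported. It was 2 among the 9969 brighter genes, with a variance trend and robust moderation and with the replicate block. With each array centred on its median it was 3. An unadjusted limma p under 0.05 was found in 16.6% of all genes. It was found in 6 listed genes both without Ldha and without those on chromosome 7. In both settings the number past the threshold was 0. Leaving out 1 array gave 0 to 3. With median centring the median was -0.16 for the listed genes and -0.07 for all genes. With 1 array left out that of the listed genes was -0.15 to -0.0070. Over all genes the calls numbered 448 (53.1% higher in KO), 1088 with median centring (21.8% higher), 831 with the variance trend (42.1% higher), 1187 with the replicate block, and 264 to 1536 with 1 array left out, the extremes without KO replicate 1 and without KO replicate 2; they numbered 277 without WT replicate 1. Same-numbered arrays did not deviate together (r = 0.0074 across genes), so the numbers were not taken as pairs. Slc2a3 passed under median centring, the variance trend, the replicate block, the 9969 brighter genes and without KO replicate 2, Mpc1 (limma adjusted p = 0.0405) under median centring, and Pdk3 (limma adjusted p = 0.0370) without KO replicate 2. Ldha did not pass without KO replicate 1 (log2 fold change -0.565, against -0.612 with all arrays; limma adjusted p = 0.0509). Each setting that leaves out an array has a group of 1, assumed to vary as the other group's pair does.

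Of 372 single-gene values under alternatives, 39 changed sign, in 17 genes, none of them past the threshold in the limma fit as reported. After a further quantile normalization these were Hk1 0.00351, Pfkfb3 0.0182, Tpi1 0.0313, Pgk1 0.00302, Eno2 -0.0434, Ldhb -0.0353, Pdk2 0.0154, Pgd 0.0306, Rpia 0.0385, Tkt 0.0573, Taldo1 0.00527 and Pgm2 0.0424, and with median centring Hk2 -0.0655, Eno2 -0.0436, Ldhb -0.0428 and Pgls -0.00488. With 1 array left out the ranges were Tpi1 (-0.0572 to 0.000705), Pkm (-0.16 to 0.0117), Ldhb (-0.181 to 0.268), Pdha1 (-0.179 to 0.0168), Pdk2 (-0.11 to 0.11), Pgd (-0.134 to 0.0446), Rpia (-0.262 to 0.169), Tkt (-0.098 to 0.0735), Taldo1 (-0.199 to 0.0325), Pgm2 (-0.149 to 0.0706), Hk1 (-0.174 to 0.0207), Hk2 (-0.0474 to 0.0885), Pfkfb3 (-0.085 to 0.0231), Aldoc (-0.211 to 0.0925) and Eno2 (-0.0796 to 0.165). The other Hk1 probe set, an alternative chosen after seeing the data, gave 0.0731. The causes were not tested.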
